A study of Homo sapiens with 6 samples.

Results

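The genes described here are 8 long non-coding genes whose transcripts carry microRNAs, chosen by name from the 58735 genes of the table: MIR17HG, MIR22HG, MIR31HG, MIR205HG, MIR100HG, MIR155HG, MIR210HG and H19. All 8 were present. They were measured by RNA sequencing in HaCaT, a line of human keratinocytes that became immortal spontaneously, of wild type genotype per the labels. There were 3 libraries from cells given dacomitinib, a drug that irreversibly blocks EGFR and related receptor kinases, for 48 h, and 3 control libraries. Treatment began at 70% confluence. The design text mentions 0.1% DMSO for the experimental group, and neither the vehicle of the controls nor the drug dose is given in the sources used here. The treated columns carry a letter that stands in no label and were assigned by elimination, so every direction below rests on that assignment. Separate cultures are not stated for the 3 libraries of a group, and p-values therefore refer to a spread among libraries that may be technical.

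A host gene is transcribed as a long RNA from which hairpins are cut. DROSHA with DGCR8 releases the hairpin in the nucleus, XPO5 with RAN carries it to the cytoplasm, DICER1 trims it, and an Argonaute protein holds the mature strand. The mature strand then pairs with messenger RNAs mainly through its seed, bases 2 to 8. MIR17HG carries the miR-17-92 cluster, known as a target of MYC and E2F factors that promotes proliferation. MIR205HG carries miR-205, an abundant microRNA of squamous epithelium, and MIR31HG carries miR-31, a microRNA induced in hyperproliferative skin. MIR22HG carries miR-22, MIR210HG the hypoxia-induced miR-210, MIR100HG a cluster with let-7a-2, MIR155HG the immune-activated miR-155, and the imprinted gene H19 carries miR-675. Mature microRNAs were not measured in these libraries, so each value is a level of the long host RNA.

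The 15 hairpin genes that lie within the 8 hosts were all found in RefSeq (GRCh38.p14). The sequences below are those of the hosts with the clearest differences and of the most abundant hosts, with the seed in capitals. They come first for the MIR17HG cluster, because its products share seeds with those of the protein-coding host MCM7, described further on.
hsa-miR-17-5p: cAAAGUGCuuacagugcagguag
hsa-miR-20a-5p: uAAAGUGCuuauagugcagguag
hsa-miR-106b-5p: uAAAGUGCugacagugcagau
hsa-miR-93-5p: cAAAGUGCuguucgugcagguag
hsa-miR-92a-3p: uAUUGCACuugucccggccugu
hsa-miR-25-3p: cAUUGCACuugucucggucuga
hsa-miR-19a-3p: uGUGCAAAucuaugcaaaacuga
hsa-miR-19b-3p: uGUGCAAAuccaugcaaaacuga
hsa-miR-18a-5p: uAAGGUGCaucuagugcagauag
The seed AAAGUGC is shared by miR-17-5p and miR-20a-5p of MIR17HG and by miR-106b-5p and miR-93-5p of MCM7. The seed AUUGCAC is shared by miR-92a-3p of MIR17HG and miR-25-3p of MCM7. The pair of miR-19 strands share GUGCAAA.

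The strands of MIR31HG, MIR205HG, MIR22HG and MIR210HG each have a seed of their own.
hsa-miR-31-5p: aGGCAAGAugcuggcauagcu
hsa-miR-205-5p: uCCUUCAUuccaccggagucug
hsa-miR-22-3p: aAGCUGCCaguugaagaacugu
hsa-miR-210-3p: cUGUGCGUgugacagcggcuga
In RefSeq no other mature human strand carries any of these 4 seeds.

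Where a hairpin lies in its host differs among the 8 genes. All 6 hairpins of MIR17HG (chr13:91347820-91354579, plus strand, GRCh38) lie in an exon of 2 of its 3 annotated transcripts. The miR-22 hairpin is exonic in all 19 transcripts of MIR22HG (chr17:1711493-1717174, minus strand), and the miR-155 hairpin is exonic in the single transcript of MIR155HG (chr21:25561909-25575168, plus strand). The miR-675 hairpin is exonic in 4 of 12 transcripts of H19 (chr11:1995176-2001470, minus strand). In MIR31HG (chr9:21455642-21559669, minus strand), MIR210HG (chr11:565660-568457, minus strand) and MIR100HG (chr11:122028327-122556721, minus strand) the hairpins lie in introns. The miR-205 hairpin is touched by exons in 7 of 10 transcripts of MIR205HG (chr1:209428820-209432838, plus strand), which share 39 bases with it.

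**Figure D1:**
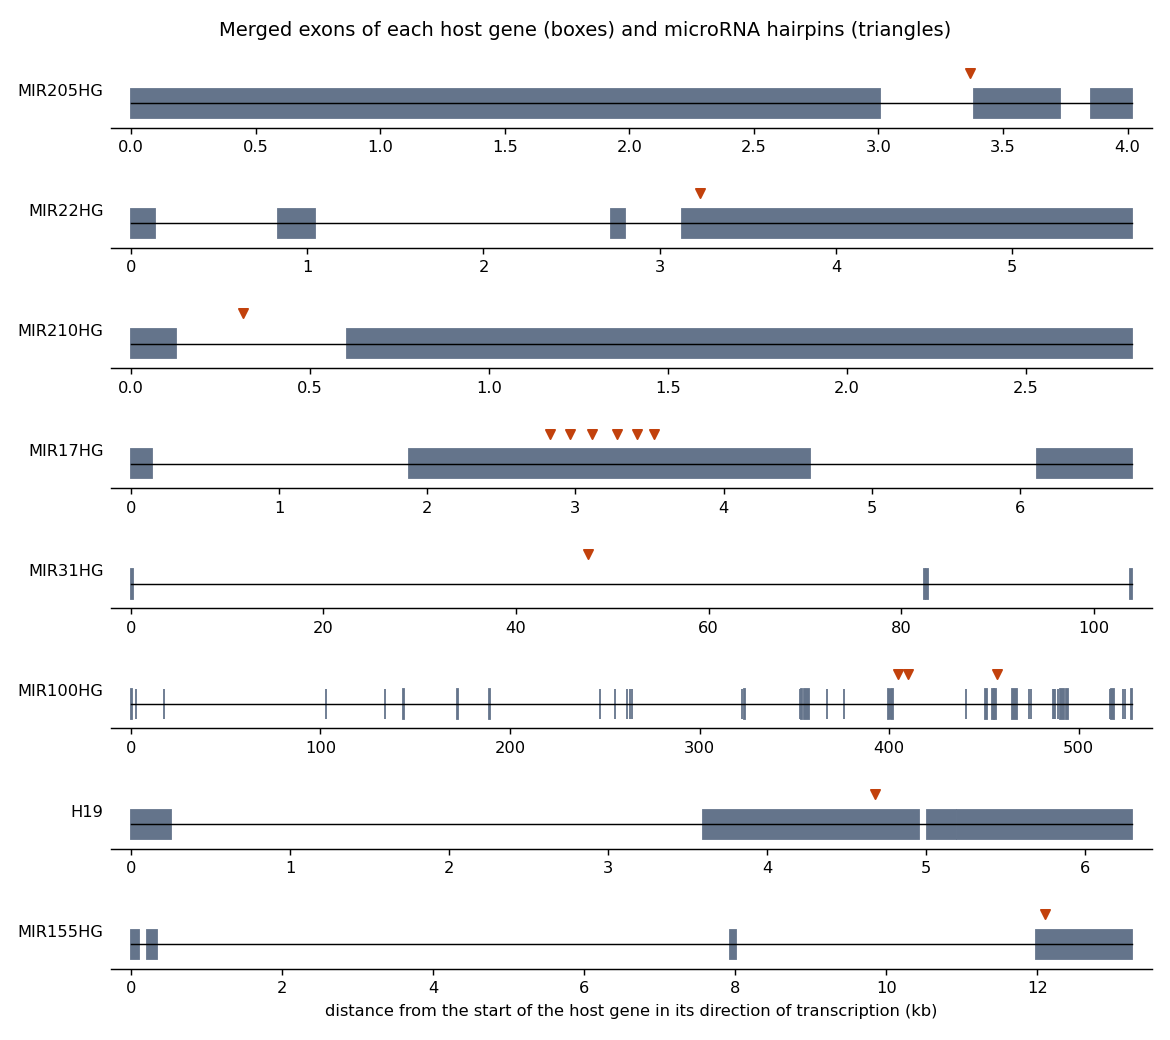
Each line is 1 host gene, with distance from its start in kb on the x axis, boxes for exons merged over all annotated transcripts and triangles for microRNA hairpins. The 6 triangles of MIR17HG stand over its middle box, and those of MIR31HG, MIR210HG and MIR100HG stand over introns.

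The libraries held 15171200 to 16179273 fragments on genes in the dacomitinib group and 14960650 to 16166582 in the control group. Profiles correlated at 0.97 to 0.979 within a group and at 0.87 to 0.888 between the groups. All 7 keratinocyte markers had a mean of at least 1 FPKM (fragments per gene, divided by the length of the gene and by the size of the library) in both groups. Their summed level was 937.6 to 1116 FPKM with dacomitinib and 1207 to 1275 FPKM in controls. TP63 had 38.0, 36.4 and 37.8 FPKM with dacomitinib and 40.8, 40.3 and 39.2 FPKM in controls (log2 difference -0.10, limma adjusted p = 0.0686). TP63 changed sign and was called higher with TPM (0.21) and quantile normalization (0.14). KRT14 fell (-0.87, adjusted p = 0.000203), as did the integrin ITGA6 (-0.38, adjusted p = 0.000191, but not called with TPM, -0.06). KRT5 was called lower (-0.34, adjusted p = 0.0139), a call lost in 5 of 17 alternatives, among them own fragment totals (-0.17), TPM (-0.02), no filter on low values, and leaving out dacomitinib replicate 3 or control replicate 1. The adhesion genes CDH1 (0.45, adjusted p = 0.000254) and DSG3 (0.52, adjusted p = 6.76e-05) were higher. SFN was not called (-0.22, adjusted p = 0.121), but was called lower with limma-voom (-0.22) and without dacomitinib replicate 1 (-0.33). Of 11 markers of other cell types, 3 reached 1 FPKM with dacomitinib and 1 in controls, and 2 were at 0 in each group. Their sum was 13.9 to 16.98 FPKM with dacomitinib and 3.202 to 3.797 FPKM in controls. With dacomitinib most of this sum was the endothelial cadherin CDH5, which had 11.4, 8.60 and 10.0 FPKM with dacomitinib and 1.06, 1.17 and 1.22 FPKM in controls. The fibroblast marker VIM had no fragment with dacomitinib and 2, 1 and 0 fragments in controls, and COL1A1 stayed below 1 FPKM in every library. DCN, also a fibroblast marker, had 267, 136 and 181 fragments with dacomitinib and 6, 2 and 3 in controls, or 1.24, 0.638 and 0.810 FPKM with dacomitinib and 0.0330, 0.0101 and 0.0159 FPKM in controls. The endothelial marker VWF had 1.20, 1.16 and 1.21 FPKM with dacomitinib and 0.367, 0.356 and 0.275 FPKM in controls. The melanocyte marker PMEL had 1.32, 1.27 and 1.37 FPKM with dacomitinib and 0.543, 0.682 and 0.610 FPKM in controls. In DCN, VWF and PMEL every treated library lay above every control, and all 3 were under the limit for the test. Among the genes over that limit 67.1% did not overlap, in either direction. The part of these markers in the results below was not tested.

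The hosts spanned a wide range of levels. By mean FPKM over the 6 libraries the order was MIR205HG, MIR22HG, MIR210HG, MIR17HG, MIR31HG, MIR100HG, H19 and MIR155HG. MIR205HG ranked 7 among the 1627 long non-coding genes with a mean of at least 1 FPKM, while MIR22HG ranked 113, MIR210HG 367, MIR17HG 624 and MIR31HG 722. MIR31HG stood above MIR17HG in every dacomitinib library and below it in every control library. The levels of MIR210HG and MIR17HG overlapped in the control libraries, and those of H19 and MIR155HG overlapped in both groups. MIR100HG, H19 and MIR155HG were under the limit of 1 FPKM and have no test in the main comparison.

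**Figure D2:**
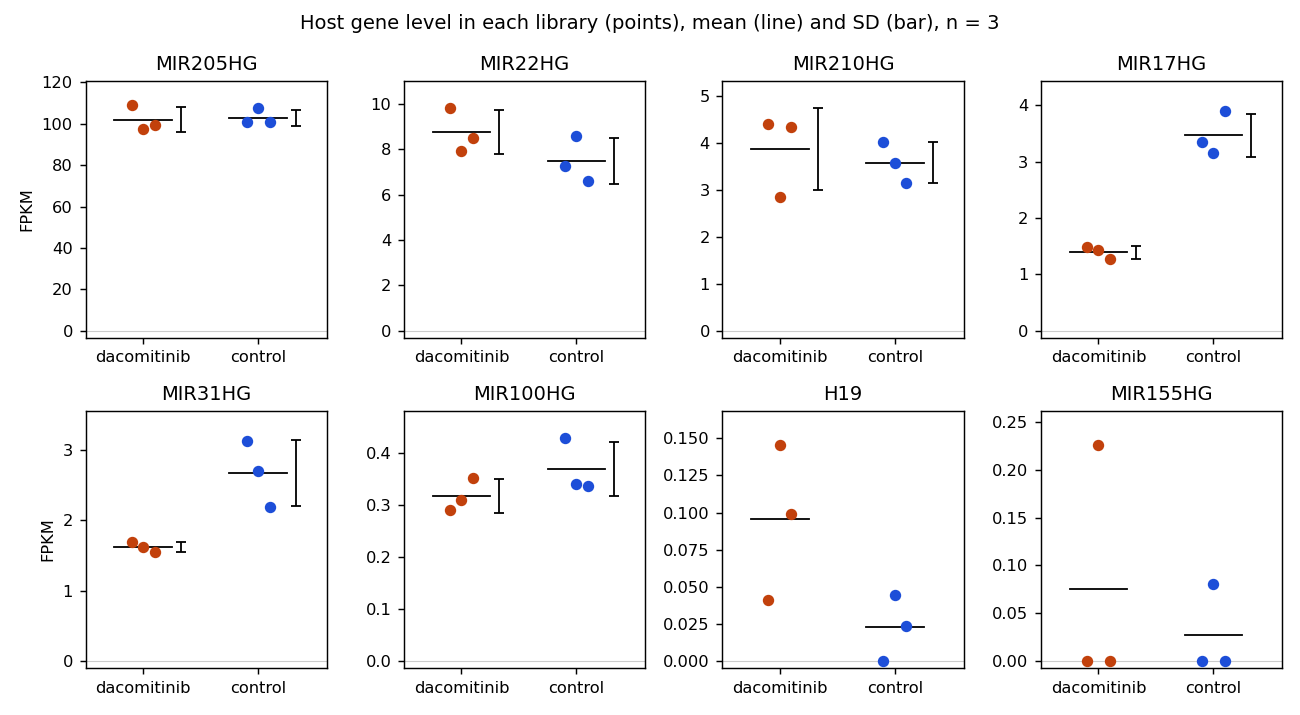
FPKM of each host gene on its own y axis, with 1 point per library, dacomitinib left of control, a line at the mean and a bar of 1 SD (n = 3; no bar for H19 and MIR155HG, which rest on few fragments). The groups are apart for MIR17HG and MIR31HG, and they overlap for the other 6 genes. Of all tested genes 67.1% had groups apart, in either direction.

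Of the 5 hosts that could be tested, MIR17HG and MIR31HG were lower with dacomitinib, none was higher and 3 did not pass the test (limma on log2(FPKM + 1), adjusted p under 0.05 over all 13748 tested genes). The groups differed in much of the transcriptome: 60.2% of all tested genes were called, 25.4% higher and 34.8% lower. Among long non-coding genes 47.3% were called, 40.3% higher and 6.95% lower. Beside these shares stand 2 of 5 hosts called lower and 0 called higher, and 5 genes are too few to compare with either background. The split of all genes depends on the scaling between libraries. For TPM 61.8% were called, 42.0% higher and 19.8% lower. With each library scaled to its own fragment total 60.0% were called, 33.8% higher and 26.3% lower, and after quantile normalization 59.0%, with 30.4% higher and 28.6% lower. In limma-voom on recovered fragments 62.2% of 16278 genes were called, 29.5% higher and 32.7% lower. The median log2 difference of the 5 hosts was -0.01, beside -0.06 for all genes and 0.35 for long non-coding genes.

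MIR17HG (ENSG00000215417) had 1.49, 1.43 and 1.27 FPKM with dacomitinib, against 3.36, 3.16 and 3.90 FPKM in controls. Every treated library lay below every control library, as was so in either direction for 67.1% of tested genes. The means were 1.40 ± 0.115 FPKM with dacomitinib and 3.47 ± 0.382 FPKM in controls (SD, n = 3 each), a ratio of 0.402. These values rest on 87, 83 and 77 fragments with dacomitinib and on 166, 170 and 200 fragments in controls. The log2 difference was -0.90 (SE 0.10, 95% interval -1.13 to -0.66, adjusted p = 0.000311). On recovered fragments with limma-voom, which adds no FPKM pseudocount, it was -1.31 (adjusted p = 3.59e-06). MIR17HG was lower under each alternative that tested it.

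No fragment was assigned to any of the 6 hairpin genes of the cluster in any library. They overlap an exon of their host, and how a fragment in both was assigned is not given in the sources used here. MIR17HG stands alone: the nearest genes with a mean of at least 1 FPKM were AL445647.1 and TGDS, 3536588 and 3219472 bases away, and neither was called (adjusted p = 0.428 and 0.108). The 3 tested genes with the profiles most like that of MIR17HG over the 6 libraries were SYNCRIP, MRPL39 and NF2, at distances of 0.082, 0.0879 and 0.0929 between centred log2(FPKM + 1) profiles.

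MIR31HG (ENSG00000171889) had 1.68, 1.62 and 1.54 FPKM with dacomitinib, against 3.13, 2.70 and 2.19 FPKM in controls. The groups did not overlap, as was so for 67.1% of tested genes. The means were 1.62 ± 0.0712 FPKM with dacomitinib and 2.67 ± 0.469 FPKM in controls (SD, n = 3 each), a ratio of 0.604. The gene rests on few fragments, 21, 20 and 20 with dacomitinib and 33, 31 and 24 in controls. The coefficient of variation between treated libraries, 4.41%, was smaller than the 22.2% that counting alone would give. The log2 difference was -0.48 (SE 0.12, 95% interval -0.76 to -0.20, adjusted p = 0.0109). It was not called with limma-voom (-0.70, adjusted p = 0.0917) or TPM (-0.35, adjusted p = 0.0764).

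Of the 745 exonic bases of MIR31HG, 303 are also exonic in the interferon pseudogene IFNWP19 on the opposite strand. Whether counting used strand is not given in the sources used here, so reads of the pair may not be told apart. IFNWP19 was lower too, with 7, 20 and 10 fragments with dacomitinib and 20, 37 and 28 fragments in controls (-0.96, adjusted p = 0.0149), a call lost without control replicate 2 (-0.81). IFNE, the epithelial interferon epsilon gene that lies in a MIR31HG intron on the same strand, had 2.96, 3.43 and 2.18 FPKM with dacomitinib and 2.68, 3.56 and 2.72 FPKM in controls (-0.05, adjusted p = 0.775). The snoRNA RF00157, also within MIR31HG, had 3, 0 and 0 fragments with dacomitinib and 1, 5 and 0 in controls (adjusted p = 0.557). The nearest genes on each side with a mean of at least 1 FPKM were KLHL9 and MTAP, 120262 and 242874 bases away. KLHL9, a ubiquitin ligase adaptor, was higher (0.29, adjusted p = 0.00859). MTAP, an enzyme of methionine salvage, was called lower (-0.22, adjusted p = 0.0327), but the call was lost in 11 of 16 alternatives, among them own fragment totals (-0.09), TPM (0.04) and each single library left out other than control replicate 2. The 3 profiles most like MIR31HG were an RF00019 copy (ENSG00000201988), AC135050.6 and DCBLD1, at distances of 0.114, 0.115 and 0.115.

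MIR205HG (ENSG00000230937) had 109, 97.7 and 99.3 FPKM with dacomitinib, against 101, 107 and 101 FPKM in controls. The groups overlapped, with means of 102 ± 6.11 FPKM with dacomitinib and 103 ± 3.87 FPKM in controls (SD, n = 3 each). At 5014 to 6414 fragments per library it is the best measured of the 8. The log2 difference was -0.01 (SE 0.06, 95% interval -0.15 to 0.12, adjusted p = 0.844). This value depends on the scaling: it was 0.16 when each library was scaled to its own fragment total (adjusted p = 0.0281), 0.17 after quantile normalization (adjusted p = 0.00942) and 0.30 for TPM (adjusted p = 0.000907), each called higher. The median of all genes moved with the scaling too: it was -0.06 on the deposited scale, 0.02 after quantile normalization, 0.08 with own totals and 0.23 for TPM.

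The miR-205 hairpin had a row of its own, with 36, 30 and 58 fragments with dacomitinib and 37, 54 and 26 in controls. It was not called (-0.10, SE 0.29, adjusted p = 0.782). The nearest genes to MIR205HG with a mean of at least 1 FPKM were LAMB3 and PLXNA2, 182032 and 1184500 bases away. LAMB3 encodes the beta 3 chain of an epidermal laminin of the basement membrane and lies on the other strand. LAMB3 had 178, 155 and 159 FPKM with dacomitinib and 86.6, 89.6 and 83.8 FPKM in controls (0.91, SE 0.06, adjusted p = 3.74e-05). PLXNA2, a semaphorin receptor on the other side, was lower (-0.55, adjusted p = 0.000241). The 3 nearest profiles were BLVRA, UBE2L6 and GRB10, at distances of 0.0337, 0.0501 and 0.0519.

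MIR22HG (ENSG00000186594) had 9.83, 7.93 and 8.51 FPKM with dacomitinib, against 7.26, 8.58 and 6.61 FPKM in controls. Control replicate 2 lay within the treated range. The means were 8.76 ± 0.972 FPKM with dacomitinib and 7.48 ± 1.00 FPKM in controls (SD, n = 3 each), and the log2 difference was 0.20 (SE 0.11, 95% interval -0.05 to 0.46, adjusted p = 0.146). It was called higher with own fragment totals (0.36, adjusted p = 0.0195), quantile normalization (0.34, adjusted p = 0.0299), TPM (0.53, adjusted p = 0.00316) and without control replicate 2 (0.29, adjusted p = 0.0487). TLCD2, whose product acts on membrane lipid composition, lies 1055 bases downstream on the same strand. TLCD2 had 13.1, 12.0 and 12.0 FPKM with dacomitinib and 5.19, 5.67 and 5.44 FPKM in controls (1.05, SE 0.06, adjusted p = 1.61e-05). WDR81, which overlaps MIR22HG on the opposite strand without sharing exonic bases, was not called (0.05, adjusted p = 0.53), nor was SERPINF2, the plasmin inhibitor gene (0.10, adjusted p = 0.614). WDR81 was called higher with own fragment totals (0.20) and TPM (0.36). The 3 nearest profiles were PJA1, ANKRD46 and ID2, at distances of 0.0836, 0.0991 and 0.128.

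MIR210HG (ENSG00000247095) had 4.40, 2.86 and 4.33 FPKM with dacomitinib, against 4.02, 3.58 and 3.14 FPKM in controls. Dacomitinib replicate 2 was the lowest of all 6 libraries, and the groups overlapped. The means were 3.86 ± 0.873 FPKM with dacomitinib and 3.58 ± 0.441 FPKM in controls (SD, n = 3 each), with a log2 difference of 0.08 (SE 0.15, 95% interval -0.28 to 0.43, adjusted p = 0.689). Its hairpin lies in the first intron and had 8, 5 and 2 fragments with dacomitinib and 0, 0 and 2 in controls. That row was called higher (1.40, SE 0.45, adjusted p = 0.0333), but on these few fragments the call was lost without dacomitinib replicate 1, dacomitinib replicate 2, control replicate 1 or control replicate 2 in turn (1.08 to 1.34, adjusted p = 0.0869 to 0.0992), and without the filter on low values (adjusted p = 0.0851). The neighbour RASSF7, 1639 bases away, was not called (0.06, adjusted p = 0.609), but was called higher with quantile normalization (0.28) and TPM (0.38). PHRF1 was called lower (-0.27, adjusted p = 0.00742) but not with own fragment totals (-0.12), quantile normalization (-0.08) or TPM (0.02). The 3 nearest profiles were ATP5MG, POLR2J3 and EIF4BP3, at distances of 0.148, 0.149 and 0.165.

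**Figure D3:**
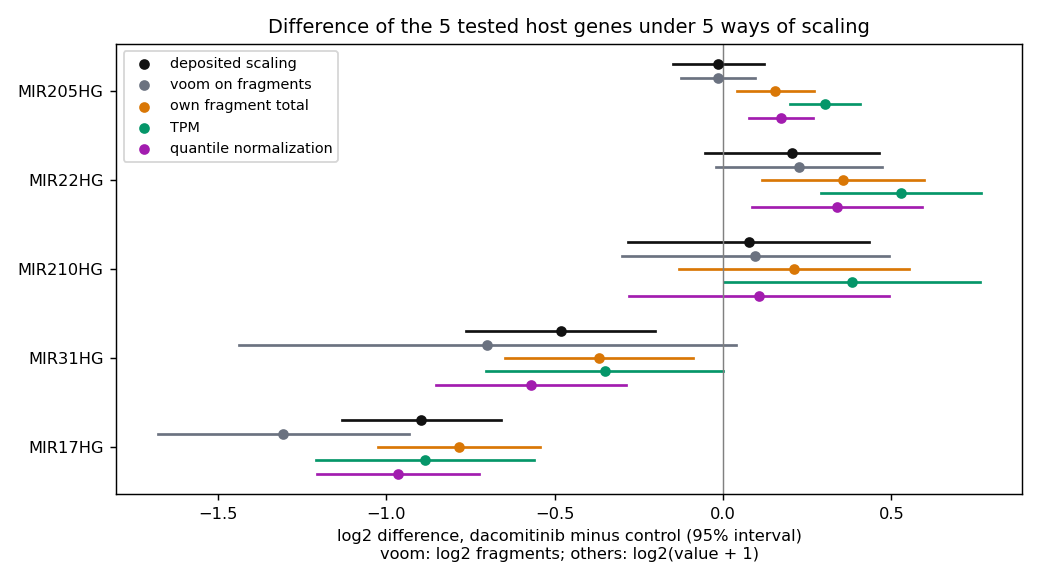
Log2 difference (dacomitinib minus control) of the 5 tested hosts with 95% intervals, under the deposited scaling, limma-voom on fragments, own fragment totals, TPM and quantile normalization. MIR17HG lies below 0 in each, the intervals of MIR31HG reach 0 for limma-voom and TPM, and MIR205HG lies at -0.01 on the deposited scale and at 0.30 for TPM.

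The 3 hosts under 1 FPKM were weak in both groups. MIR100HG (ENSG00000255248) had 0.290, 0.311 and 0.353 FPKM with dacomitinib and 0.430, 0.341 and 0.337 FPKM in controls, from 94 to 119 fragments with dacomitinib and 96 to 118 in controls. The groups overlapped (exact permutation test, two-sided, p = 0.3, where 0.1 is the smallest possible), and limma-voom gave -0.21 (95% interval -0.60 to 0.18, adjusted p = 0.349). H19 (ENSG00000130600) had 2, 7 and 5 fragments with dacomitinib and 0, 2 and 1 in controls. The ratio of the group sums per library size was 4.07 with a counting interval of 1.14 to 22.1, and the groups overlapped in FPKM (exact permutation p = 0.2). MIR155HG (ENSG00000234883) had 0, 6 and 0 fragments with dacomitinib and 0, 2 and 0 in controls, all from the libraries numbered 2 (ratio 2.62, counting interval 0.468 to 26.5, exact permutation p = 1). For MIR155HG a difference was not detectable at this depth. For H19 the counting interval lay above 1, but it leaves out the spread between libraries. Limma without the filter on low values gave no call (log2 difference 0.10, adjusted p = 0.192). At such low levels the added 1 FPKM shrinks the difference, and limma-voom did not test H19, so whether it differed cannot be decided here.

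The genes named on each side of these weak hosts are the nearest with a mean of at least 1 FPKM. Their being expressed follows from that choice. SORL1, a sorting receptor gene 394634 bases from MIR100HG, was higher (0.47, adjusted p = 0.000373). UBASH3B, 98954 bases away on the other side, encodes a phosphatase that acts on receptor tyrosine kinase signalling. UBASH3B was lower (-0.64, adjusted p = 0.00457). MRPL39, a mitochondrial ribosomal protein gene 10488 bases from MIR155HG, had 6.48, 6.28 and 5.80 FPKM with dacomitinib and 12.0, 10.7 and 13.7 FPKM in controls (-0.86, adjusted p = 0.000265). AP000561.1 lies 3141090 bases away on the other side of MIR155HG and was called lower (-0.71, adjusted p = 0.0385). That call was lost in 10 of 16 alternatives, 4 of them with a single library left out (dacomitinib replicate 2 or 3, control replicate 2 or 3). Its value ranged from -0.92 to -0.46. MRPL23-AS1, 5256 bases from H19, had 1.47, 2.73 and 3.00 FPKM with dacomitinib and 1.05, 1.04 and 0.906 FPKM in controls (0.74, adjusted p = 0.0161), a call lost without dacomitinib replicate 2 (0.65) or 3 (0.60). On the other side of H19, 371168 bases away, an RF00019 copy (ENSG00000199550) had 2, 5 and 9 fragments with dacomitinib and 4, 0 and 0 in controls (1.20, adjusted p = 0.118), called higher only without control replicate 1 (1.80). BLID, which overlaps MIR100HG on the same strand, had 0, 0 and 2 fragments with dacomitinib and 0, 2 and 0 in controls. The other genes that overlap MIR100HG or H19, apart from the hairpins, had no fragment in any library.

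The list of further long non-coding hosts holds 59 genes: every other gene named MIR...HG, with DLEU2, MEG3, PVT1 and DNM3OS added by choice. MIR7515HG and MIR670HG, both without a fragment, span no microRNA gene on their own strand. Of the 59 genes, 12 could be tested. Of these 3 were higher, 3 lower and 6 not called, with a median log2 difference of 0.19, again beside 60.2% of all genes called. MIR3936HG had 16.0, 18.0 and 18.6 FPKM with dacomitinib and 3.76, 4.09 and 3.49 FPKM in controls (1.95, SE 0.08, adjusted p = 3.94e-06). MIR193BHG, host of miR-193b and miR-365a, had 4.45, 4.84 and 4.88 FPKM with dacomitinib and 0.864, 0.890 and 0.855 FPKM in controls (1.61, SE 0.08, adjusted p = 1.1e-05). MIR222HG, host of miR-221 and miR-222, had 4.59, 3.20 and 3.20 FPKM with dacomitinib and 2.10, 1.86 and 1.39 FPKM in controls (0.74, SE 0.15, adjusted p = 0.00575). In each of these 3 genes all treated libraries lay above all controls, while 67.1% of tested genes did not overlap in either direction. MIR193BHG passed the limit of 1 FPKM only through the treated libraries.

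MIR503HG, DLEU2 and PVT1 were the 3 called lower. MIR503HG had 6, 0 and 6 fragments with dacomitinib and 34, 61 and 47 fragments in controls (-1.34, SE 0.19, adjusted p = 0.00102). DLEU2, host of miR-15a and miR-16-1, had 0.597, 1.04 and 0.721 FPKM with dacomitinib and 2.45, 2.57 and 2.57 FPKM in controls (-0.99, SE 0.13, adjusted p = 0.000663). Its mean with dacomitinib, 0.786 FPKM, was under the limit too. PVT1 differed little (-0.25, adjusted p = 0.00872) and was not called with own fragment totals (-0.10), quantile normalization (-0.13) or TPM (0.03).

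The products of DLEU2 share a seed with those of the protein-coding host SMC4, and the strand of MIR503HG is shown beside them for comparison.
hsa-miR-15a-5p: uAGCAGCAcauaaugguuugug
hsa-miR-16-5p: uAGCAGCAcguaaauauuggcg
hsa-miR-15b-5p: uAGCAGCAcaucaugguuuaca
hsa-miR-503-5p: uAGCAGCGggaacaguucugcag
The mature miR-16-5p is the same from DLEU2 and from SMC4.

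Of 23 protein-coding genes that carry a microRNA on their own strand, 17 were tested, and 2 were higher, 9 lower and 6 not called (median -0.28), beside 60.2% of all tested genes called, 25.4% higher and 34.8% lower. With own fragment totals the counts were 7 higher and 8 lower, and for TPM 8 higher and 6 lower. All tested genes moved as well, to 33.8% higher and 26.3% lower with own totals, and 42.0% and 19.8% for TPM. MCM7, a subunit of the replicative helicase and host of miR-106b, miR-93 and miR-25, had 8.87, 6.95 and 8.33 FPKM with dacomitinib and 82.6, 75.4 and 88.7 FPKM in controls (-3.20, SE 0.10, adjusted p = 1.6e-06). SMC4, a condensin subunit and host of miR-15b and miR-16-2, had 14.9, 15.3 and 15.1 FPKM with dacomitinib and 88.0, 83.6 and 86.7 FPKM in controls (-2.43, SE 0.04, adjusted p = 2.9e-07). SREBF1, the lipid synthesis regulator that hosts miR-33b, followed at -0.81 (adjusted p = 0.00127). PANK1 was also called lower (adjusted p = 0.0234), but lost the call in 8 of 16 alternatives, 4 of them with a single library left out. CTDSPL and CTDSP2, small phosphatases that host miR-26a, were the 2 called higher, at 0.48 (adjusted p = 0.00175) and 0.17 (adjusted p = 0.0082). The hosts of the printed AAAGUGC strands, MIR17HG and MCM7, were thus both lower, as were DLEU2 and SMC4, hosts of the printed AGCAGCA strands. RefSeq holds 8 mature human strands with AAAGUGC and 7 with AGCAGCA. The hosts of each full seed family were not examined as a group.

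**Figure D4:**
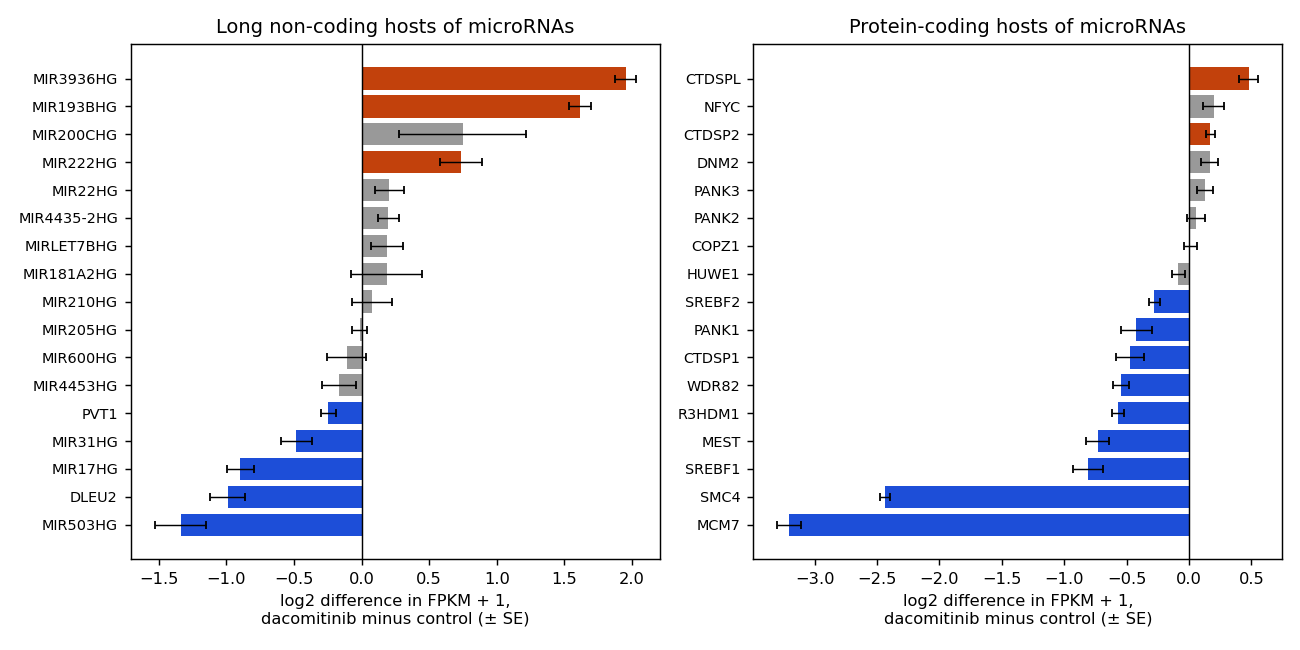
Log2 difference in FPKM + 1 (dacomitinib minus control, bars with SE) of the 17 tested long non-coding hosts (left) and the 17 tested protein-coding hosts (right). Red bars were called higher, blue bars lower and grey bars not called, and MCM7 and SMC4 have the lowest values, at -3.20 and -2.43.

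Of 18 genes of microRNA processing and action, 16 were tested, with 4 higher, 8 lower and 4 not called (median -0.29). Of all tested genes 60.2% were called, 25.4% higher and 34.8% lower. With own fragment totals 5 were higher and 8 lower, beside 33.8% and 26.3% of all tested genes. For TPM 6 were higher and 7 lower, beside 42.0% and 19.8%. RAN, the GTPase of nuclear transport, had 30.0, 25.9 and 27.6 FPKM with dacomitinib and 98.1, 98.2 and 90.8 FPKM in controls (-1.75, SE 0.06, adjusted p = 3.28e-06). DGCR8 fell by 0.72 (adjusted p = 0.000101) and XPO5 by 0.63 (adjusted p = 0.000136) on the log2 scale. DROSHA (-0.52, adjusted p = 0.00045), DICER1 (-0.53, adjusted p = 0.000107) and AGO2 (-0.60, adjusted p = 0.000236) were also lower. TNRC6B was called higher (adjusted p = 0.0392), but lost the call in 7 of 17 alternatives, 5 of them with a single library left out. The helicase DDX17 (0.38, adjusted p = 0.000198) and the Argonautes AGO3 (0.38, adjusted p = 0.00347) and AGO4 (0.36, adjusted p = 0.0082) were higher too. Thus AGO2 and AGO3 were called in opposite directions.

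Of 15 transcription factors known to act on these hosts, 13 were tested, with 3 higher, 8 lower and 2 not called (median -0.50), where all tested genes gave 60.2% called, 25.4% higher and 34.8% lower. For TPM 5 were higher and 7 lower, beside 42.0% and 19.8% of all tested genes. E2F1, a factor of S phase entry, had 1.43, 1.47 and 1.72 FPKM with dacomitinib and 14.9, 13.5 and 14.9 FPKM in controls (-2.60, SE 0.07, adjusted p = 1.11e-06). E2F2 had 0.591, 0.497 and 0.579 FPKM with dacomitinib and 5.71, 5.60 and 6.97 FPKM in controls (-2.18, SE 0.10, adjusted p = 8.44e-06). MYC had 43.7, 38.3 and 41.5 FPKM with dacomitinib and 64.8, 65.3 and 58.5 FPKM in controls (-0.60, SE 0.07, adjusted p = 0.000326). The hypoxia factor HIF1A was lower (-0.79, adjusted p = 5.94e-05), whereas its relative EPAS1 (0.53, adjusted p = 0.000153) and their partner ARNT (0.51, adjusted p = 0.000267) were higher. Of the NF-kappaB subunits, RELA was higher (0.29, adjusted p = 0.0039), while NFKB1 was lower, with 11.5, 11.0 and 11.3 FPKM with dacomitinib and 19.9, 18.9 and 20.0 FPKM in controls (-0.75, adjusted p = 2.31e-05).

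**Figure D5:**
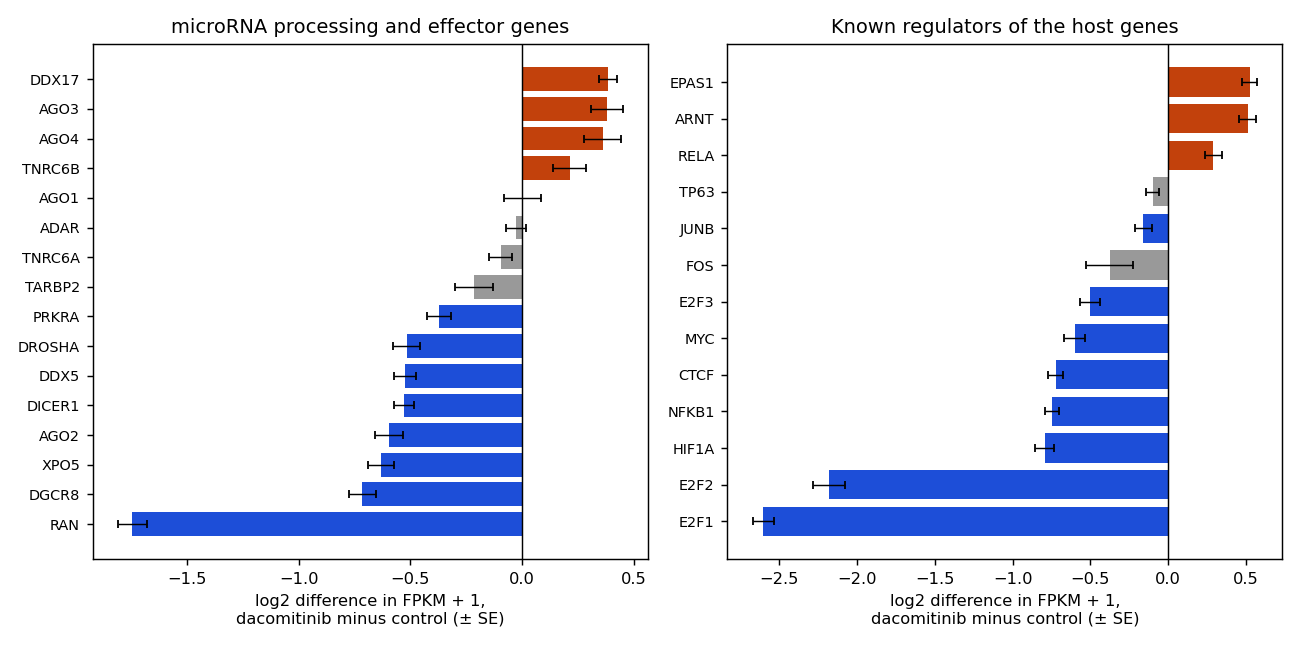
Log2 difference in FPKM + 1 (dacomitinib minus control, bars with SE) of 16 genes of microRNA processing and action (left) and of 13 known regulators of the host genes (right), coloured red for higher, blue for lower and grey for not called. RAN stands lowest on the left at -1.75, and E2F1 and E2F2 stand lowest on the right at -2.60 and -2.18.

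Of 21 published targets of the microRNAs, 17 were tested, with 5 higher, 7 lower and 5 not called (median 0.06), against a share of 60.2% called among all tested genes, 25.4% higher and 34.8% lower. For TPM 9 were higher and 6 lower, beside 42.0% and 19.8% of all tested genes. BCL2L11, the pro-apoptotic BIM and a known miR-17-92 target, had 10.1, 11.0 and 10.6 FPKM with dacomitinib and 5.24, 4.96 and 5.23 FPKM in controls (0.91, SE 0.05, adjusted p = 2.03e-05). CDKN1A, the cyclin-dependent kinase inhibitor p21, had 24.9, 25.8 and 26.5 FPKM with dacomitinib and 15.1, 14.9 and 11.5 FPKM in controls (0.86, SE 0.10, adjusted p = 0.000431). LATS2, a kinase of the Hippo pathway, was higher (0.44, adjusted p = 0.0027). FGFR3 (-1.28, adjusted p = 0.00102), a growth factor receptor, and MTOR (-0.75, adjusted p = 9.15e-05), a growth kinase, both targets of miR-100 in other cells, were lower, as was E2F1 above. Which of these values follow from microRNA levels was not tested.

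Promoter windows of 300 bases (250 before and 50 after each start, RefSeq GRCh38.p14) were searched on both strands for short motifs of these factors. The hypoxia core GCGTG was found in MIR155HG, MIR210HG and MIR22HG, and in 36.5% of all 35116 windows. The AP-1 motif TGACTCA, whose reverse complement is TGAGTCA and counts as the same motif, was found in MIR155HG only among the 8, and in 4.95% of all windows. The E-box CACGTG (7.26% of all windows), the E2F motifs TTTCGCGC (0.515%) and TTTGGCGC (0.652%) and the hypoxia form TACGTG (3.24%) were found in 0 of the 8 hosts. These counts describe letters in the windows and no binding.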

How the data were processed

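The submitters' processing notes name GRCh38 and the tools DESeq2 1.20.0, featureCounts, HISAT2, fastp and CASAVA, without their roles. The deposited values are FPKM for 58735 genes. Multiplied by the deposited gene length they were whole multiples of 1 fragment for 100% of values (tolerance 0.01), which gave the fragments per gene. From the values, the library size in the FPKM is proportional to the median of ratios size factor of those fragments over 18739 genes with fragments in every library (largest relative gap 2.6e-09), and not to the fragment total. It was 1.05 to 1.09 times the library's own total with dacomitinib and 0.946 to 0.954 times in controls. The authors' FPKM were thus already scaled in this way, so rescaling by median ratios, which was also run, only multiplied every value by a constant and checks nothing. Scaling to each library's own fragment total was added after the data were seen.

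The test was limma 3.58.1 (R 4.3.3) applied to log2(FPKM + 1) values with a trend in the variance, for genes with a mean of at least 1 FPKM, two-sided, with Benjamini-Hochberg adjustment and a threshold of 0.05. Differences are dacomitinib minus control on this scale, which understates changes of weak genes. The limit applies to the mean over all 6 libraries, so a gene can pass it only through the group where it is high. The code was tested on simulated data. Counting intervals are 95% and cover counting error only. Hosts were placed with GENCODE release 29, whose coordinates match the deposited ones for all 8. Columns C1 to C3 matched control replicates 1 to 3, and S1 to S3 were assigned to dacomitinib by elimination.

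The members and lists were chosen with earlier results of these data known. Named genes are all members, overlapping genes, the nearest expressed gene on each side, up to 3 largest rises and falls per list, the 3 nearest profiles and cell type markers. MYC, NFKB1, DROSHA, DICER1, AGO2, TNRC6B, PANK1 and further cell type markers were named beyond this rule after their values were seen. An item of the list of regulators is not reported here.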

Additional observations from a re-analysis of the deposited data

How the results depend on the processing

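MIR17HG kept its direction and call under every alternative that tested it (-1.31 to -0.78, and -0.95 to -0.83 with single libraries left out). MIR31HG lost its call with TPM (-0.35) and limma-voom (-0.70), and kept it with single libraries left out (-0.58 to -0.39). MIR22HG was called higher with TPM (0.53), quantile normalization (0.34) and own fragment totals (0.36), and ranged over 0.13 to 0.29 with single libraries left out, called only without control replicate 2. MIR205HG changed sign and was called higher with TPM (0.30), quantile normalization (0.17) and own fragment totals (0.16), and ranged over -0.0624 to 0.0165 with single libraries left out. MIR210HG was not called under any alternative, with -0.00858 to 0.235 for single libraries left out, the lowest without dacomitinib replicate 1. The hosts called higher numbered 2 with TPM, 2 with quantile normalization, 2 with own fragment totals and 0 to 1 with single libraries left out. Those called lower numbered 1 with TPM, 1 with limma-voom, 0 at a mean of at least 5 FPKM, where MIR17HG, MIR31HG and MIR210HG were not tested, and 2 with any single library left out. Over all genes, 5779 (42.0%) were higher and 2721 (19.8%) lower with TPM, against 3493 (25.4%) and 4778 (34.8%) on the deposited scale. Own fragment totals gave 33.8% higher and 26.3% lower, quantile normalization 30.4% and 28.6%, and limma-voom 29.5% and 32.7%. At a mean of at least 5 FPKM 1946 genes were higher, and with single libraries left out 3036 to 3223 were higher and 4283 to 4647 lower. The scalings differ by construction in the library size, and which is right for these cells cannot be told from the table. Median ratio scaling repeats what the deposited values already carry and is no check. Same-numbered libraries showed no sign of pairing, with correlations of 0.0267, -0.0158 and 0.0402 in their deviations from the group means. A pairing is not excluded by this, because the numbers of the treated columns are not tied to sample titles. With a replicate block the hosts still gave 2 lower and 0 higher calls, MIR17HG stood at -0.90, MIR31HG at -0.48, MIR205HG at -0.01, MIR22HG at 0.20 and MIR210HG at 0.08, and 3265 genes were higher and 4618 lower. H19 (14 fragments with dacomitinib, 3 in controls) and MIR155HG (6 with dacomitinib, 2 in controls) rest on few fragments.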
